A study of Mus musculus with 3 samples.

Results

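Endothelial cells line blood vessels, and in the liver they form sinusoids, wide and leaky capillaries in which blood slows past hepatocytes and macrophages. Sinusoidal endothelial cells clear hyaluronan, modified proteins and cell debris through scavenger receptors, and in fetal liver they enclose the niches in which red cells and blood progenitors form. Vessel growth is driven by VEGF-A acting on Kdr, vessel quiescence by angiopoietins acting on Tek with its partner Tie1, and flow-dependent remodelling by BMP ligands that signal through Acvrl1 with the co-receptor Eng.

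A list of 10 genes was followed: the sinusoidal receptors Stab1, Stab2 and Lyve1, the surface and junction proteins Pecam1, Cdh5 and Emcn, the receptor tyrosine kinases Kdr, Tek and Tie1, and the co-receptor Eng. Every array probe whose annotated symbol was on the list was taken. This gave 9 probes of 8 genes, Emcn having 2, out of 20289 probes. Genes with a value numbered 13697 in all. No probe carried the symbol or the Entrez identifier of Lyve1 or Eng, so these 2 genes have no value here. The RNA came from fetal liver of mouse embryos at E14.5 (embryonic day), with 1 single-colour CodeLink oligonucleotide array for each of 3 genotypes. These were wild-type, DNase II-deficient, and DNase II-/- IFN-IR-/- double-deficient, which lacks the receptor for type I interferon as well as the nuclease with which macrophages digest engulfed DNA. No treatment was given in the labels, strain and number of embryos per array are not stated there, and both deficiencies are of the whole embryo as labelled, not of endothelium alone. With 1 array per genotype no test is possible, and no difference given here has a replicate behind it; the number of arrays limits the precision. Values in threes are given in the order wild-type, DNase II-deficient, double-deficient.

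Values are the normalised intensities deposited by the authors, on a linear scale whose median was 0.958, 0.959 and 0.964. The 25th percentile of each array (0.162, 0.159 and 0.163) served as a floor to which lower values were raised. A probe was counted as different where it exceeded the median of either array compared and differed by at least 2-fold. The Dnase2a probe read 40.4, 48.6 and 39.7, the Ifnar1 probe 3.60, 4.66 and 3.17, and the Ifnar2 probe 0.574, 0.485 and 0.483. Since these probes may lie outside the deleted parts, they check nothing, and the genotypes rest on the labels.

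Promoter sequence is shown for 3 members whose values went different ways: Stab2, its paralog Stab1, and Emcn. Each is the 250 bases before the annotated start, 5′ to 3′ on the gene's strand, from RefSeq in build GRCm38.p6, which held 6 of the 8 measured members. Capitals mark matches on either strand to AGGAAG, a core bound by ETS factors that endothelial genes share, and to GCGTG, a hypoxia response core.
Stab2, chr10:87007943-87008192, minus strand: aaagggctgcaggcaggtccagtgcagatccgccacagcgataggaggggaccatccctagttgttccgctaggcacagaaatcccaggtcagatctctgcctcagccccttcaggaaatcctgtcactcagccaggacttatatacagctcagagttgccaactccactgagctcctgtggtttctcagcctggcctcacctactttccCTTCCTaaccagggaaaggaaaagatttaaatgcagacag
Stab1, chr14:31168642-31168891, minus strand: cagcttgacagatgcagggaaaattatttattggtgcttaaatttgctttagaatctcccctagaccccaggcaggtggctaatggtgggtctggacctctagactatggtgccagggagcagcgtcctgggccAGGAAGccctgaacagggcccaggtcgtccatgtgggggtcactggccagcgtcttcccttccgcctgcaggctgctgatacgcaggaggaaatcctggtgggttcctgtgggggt
Emcn, chr3:137340828-137341077, plus strand: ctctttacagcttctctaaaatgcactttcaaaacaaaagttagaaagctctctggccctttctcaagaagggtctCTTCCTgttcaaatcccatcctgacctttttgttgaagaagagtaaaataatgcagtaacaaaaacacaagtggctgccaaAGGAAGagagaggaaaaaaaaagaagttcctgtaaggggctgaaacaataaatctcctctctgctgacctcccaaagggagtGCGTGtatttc

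AGGAAG occurred 1 time in the Stab2 window, 1 time in the Stab1 window and 2 times in the Emcn window, and 29.5% of 32851 promoter windows of the same length held it. It occurred 1 time in the Tie1 window and was absent from those of Kdr and Tek. GCGTG occurred 1 time in the Emcn window and 2 times in that of Kdr, against 28.2% of windows. The other hypoxia core, ACGTG, held by 16.6% of windows, and the interferon response core GAAANNGAA, held by 7.13%, were in none of the windows of Stab1, Stab2, Emcn, Kdr, Tek and Tie1. No matches overlapped. A match is a description of these letters and not of a bound site.

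The members did not behave as 1 group. Of 9 probes, 7 exceeded the array median in 1 or more arrays and 5 of them in all 3. Against wild-type, the array labelled DNase II-deficient read Pecam1 and Emcn higher and Stab2 lower, while Stab1, Kdr and Tie1 were nearly level. In the double-deficient array these 3 different genes lay close to wild-type again. As these are whole-tissue values, fewer cells of a type and less RNA per cell cannot be told apart.

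**Figure D1:**
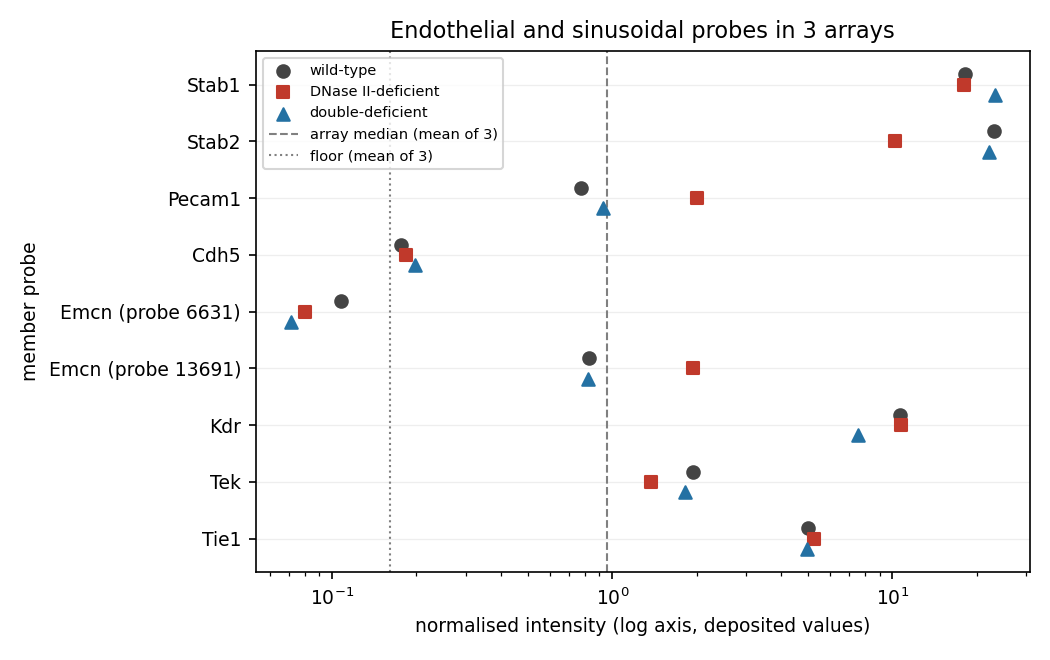
Deposited normalised intensity (log axis) of each member probe in the wild-type (circles), DNase II-deficient (squares) and double-deficient (triangles) arrays, 1 array each, with the floor and the array median as vertical lines. Pecam1 and Emcn probe 13691 lie right of the array median in the DNase II-deficient array alone, Stab2 is lowest there, and Cdh5 and Emcn probe 6631 lie near or under the floor.

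Stab2 encodes a scavenger and hyaluronan receptor of sinusoidal endothelium. Its probe read 23.0 in wild-type, 10.2 without DNase II and 22.1 in the double-deficient array. The DNase II-deficient array alone was low, 2.26-fold under wild-type and 2.17-fold under the double-deficient array, and the other two differed by 0.06 on the log2 scale. The log2 difference from wild-type, -1.18, was larger than the spread of 0.49 among the 500 probes nearest in level. That spread is 1.4826 times the median absolute deviation, and it describes these arrays, not replicates. With quantile normalisation the difference was -0.99 and with cyclic loess -0.89, so Stab2 no longer reached 2-fold under either.

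Stab1 encodes the related scavenger receptor that sinusoidal endothelium shares with some tissue macrophages. It read 18.1, 18.1 and 23.1. The log2 difference from wild-type was -0.01 in the DNase II-deficient array and 0.35 in the double-deficient array, the latter against a spread of 0.24. Stab1 was therefore level where its paralog was low, and the double-deficient array was the high one. With cyclic loess the first of these differences was 0.29, so its sign depended on the scaling.

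Pecam1, an adhesion molecule at endothelial junctions that platelets and leukocytes also carry, read 0.775, 2.01 and 0.925. It was 2.60-fold higher than wild-type in the DNase II-deficient array (log2 1.38, spread 0.50) and 2.18-fold lower again in the double-deficient array. The wild-type and double-deficient values lay under their array medians, so only the DNase II-deficient array read it above that level. The comparison of those 2 arrays was below the level filter, with a log2 difference of 0.25.

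Emcn encodes endomucin, a sialomucin of capillary and venous endothelium. Its probe 13691 read 0.827, 1.93 and 0.817. Only the DNase II-deficient value exceeded its array median. The DNase II-deficient array was 2.34-fold higher than wild-type (log2 1.23, spread 0.48), and the double-deficient array was 2.37-fold lower than the DNase II-deficient array. The second Emcn probe, 6631, was annotated to another transcript record and read 0.108, 0.0799 and 0.0712, under the floor in all 3 arrays, so it carried no measured difference. The Emcn difference therefore rests on 1 probe. Over 495 genes with 2 probes past the level filter, the log2 differences of the 2 probes from wild-type lay a median of 0.32 apart.

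Cdh5 encodes VE-cadherin, the adhesion protein of endothelial junctions. Its probe read 0.176, 0.184 and 0.198, just above the floor in each array and under every array median. No difference can be read at that level, and this defining endothelial marker was not usable here.

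The receptor kinases stayed within 2-fold in every comparison. Kdr, the main receptor for VEGF-A, read 10.6, 10.8 and 7.56. Its log2 difference between the first 2 arrays was 0.02, and up to 0.28 under other scalings. The double-deficient array was the low one, with log2 differences of -0.51 from DNase II-deficient (spread 0.38) and -0.49 from wild-type (spread 0.26). Tie1, the orphan receptor that partners Tek, read 5.01, 5.26 and 4.97, and its largest log2 difference as deposited was -0.08 (0.29 from wild-type with cyclic loess). As deposited, Tie1 varied least among the members above the array median in every array. Tek, the angiopoietin receptor, which blood stem cells also carry, read 1.94, 1.37 and 1.82. Its log2 difference from wild-type was -0.50 in the DNase II-deficient array, close to the spread of 0.49, and -0.10 in the double-deficient array.

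**Figure D2:**
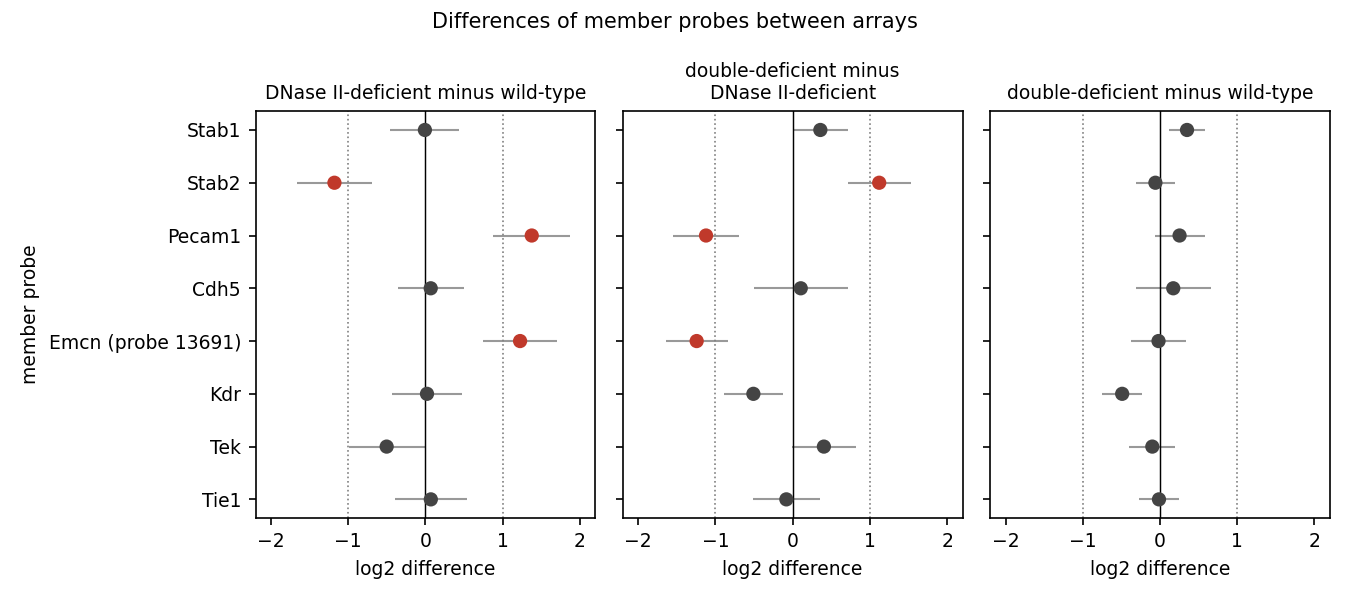
Log2 difference of each member probe above the floor in the 3 comparisons, with bars of 1 spread among the 500 probes nearest in level on each side and dotted lines at 2-fold; coloured points passed the level filter and 2-fold. Pecam1 (1.38) and Emcn (1.23) lie to the right and Stab2 (-1.18) to the left in the first panel, the directions turn in the second, and no member passes 2-fold in the third.

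In the comparison of DNase II-deficient with wild-type, 7 of the 9 member probes passed the level filter, 2 were counted as higher and 1 as lower. The 2 higher probes, of Pecam1 and Emcn, exceeded the median only in the DNase II-deficient array. They passed the filter through the array in which they were high. Over the whole array 7.06% of 10666 probes past the filter were counted as higher and 6.38% as lower. The median log2 difference of the 9 member probes was 0.02. The same over all probes was -0.03, the value that probes at the floor in both arrays take from the 2 floors. Over all probes past the filter it was -0.21, which moved to 0.02 with cyclic loess. Relative to that -0.21, Stab2 lay at -0.97, Pecam1 at 1.59 and Emcn probe 13691 at 1.43. Higher probes made up 52.5% of the array's calls as deposited, 62.9% with quantile normalisation, 64.7% with scaling to the 75th percentile and 71.8% with cyclic loess.

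In double-deficient minus DNase II-deficient, 1 member probe was counted as higher (Stab2) and 2 as lower (Pecam1 and Emcn), against 3.31% and 4.47% of 10548 probes past the filter. The 2 lower probes again passed the filter only through the DNase II-deficient array. The median of the 9 and that of all probes were both 0.04. That is the value which probes at the floor in both arrays take from the 2 floors, so the equality carries no result. Over all probes past the filter the median was 0.12. In double-deficient minus wild-type, 5 member probes passed the filter and 0 were counted in either direction, where 1.8% of 10403 probes were counted as higher and 0.721% as lower; no test or p-value exists for any of these counts. The first and second comparisons share the DNase II-deficient array, so their values are not independent of each other.

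**Figure D3:**
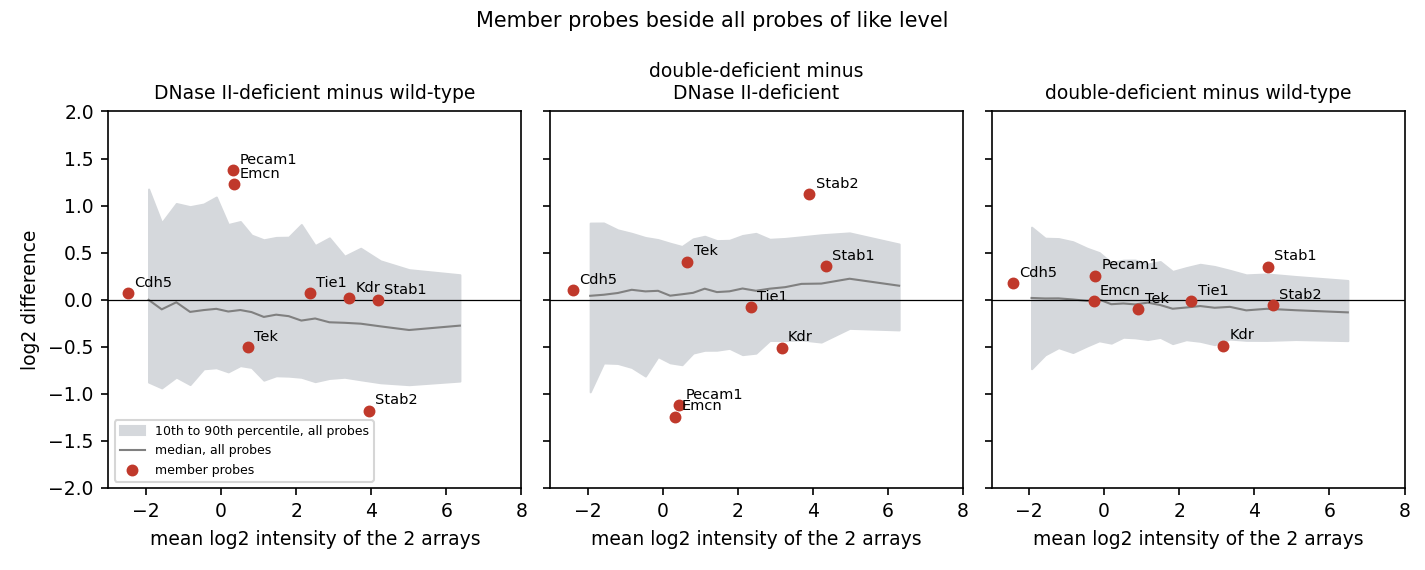
Log2 difference against the mean log2 intensity of the 2 arrays compared; the band holds the 10th to 90th percentile and the grey line the median of all probes in 20 bins of level, leaving out the dimmest probes. Stab2, Pecam1 and Emcn lie outside the band in the comparisons that include the DNase II-deficient array and inside it in double-deficient minus wild-type. Kdr lies below the band in double-deficient minus DNase II-deficient (-0.51) and in double-deficient minus wild-type (-0.49). Stab1 lies above it in double-deficient minus wild-type (0.35), and Tie1 lies inside it throughout.

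Further genes of vessel biology were read from 6 lists. Beside the counts of these and of the marker lists below stand the shares over all probes past the filter. In DNase II-deficient minus wild-type these were 7.06% higher and 6.38% lower. They were 3.31% and 4.47% in double-deficient minus DNase II-deficient, and 1.8% and 0.721% in double-deficient minus wild-type. Of genes named below, Sparcl1, Ets1, Bmp10, Bmp6, Siglec1, Lrat, Gfi1 and Pdpn exceeded the median only in the DNase II-deficient array. Angiogenic ligands and receptors had 7 of 27 probes counted as higher and 0 as lower in DNase II-deficient minus wild-type, 16 probes having passed the filter, with a median log2 difference of 0.40 over all 27. Of the 7, Apln, Adm, Pgf, Vegfc and Edn1 exceeded the median only in the DNase II-deficient array. They passed the filter through the array in which they were high. The genes that differed most were ligands. Apln, the ligand of the apelin receptor, read 0.303, 6.05 and 0.514. Adm, the vasodilator adrenomedullin, read 0.438, 7.34 and 0.497. Pgf, the placental member of the VEGF family, read 0.349, 3.55 and 0.25, and Vegfa read 3.96, 17.6 and 4.44. In each of these 4 genes the DNase II-deficient array was high. The log2 difference of the double-deficient array from wild-type was 0.18 for Adm, 0.17 for Vegfa, -0.48 for Pgf and 0.76 for Apln. The lower values of Apln, Adm and Pgf were under the array median, so their folds of 19.9, 16.7 and 10.2 rest on dim readings, while that of Vegfa, 4.46, does not. Among receptors and partners named after their values were seen, Flt1 was under the floor in all 3 arrays, Flt4 read 3.25, 2.34 and 2.51, and Nrp1, a VEGF co-receptor, read 2.85, 3.77 and 3.30. Vegfa was thus 4.46-fold higher in the array in which its receptor Kdr was level with wild-type. The ligands of Tek, also named after their values were seen, read 0.0707, 0.311 and 0.0862 for Angpt1 and 1.2, 1.81 and 1.09 for Angpt2, neither past 2-fold and the level filter. In double-deficient minus DNase II-deficient 6 of the 27 probes were counted as lower and 0 as higher (median -0.17), and against wild-type 0 were counted in the double-deficient array (median 0.17).

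Junction, adhesion and vessel genes, the class to which Pecam1, Cdh5 and Emcn belong, had 7 of 30 probes counted as higher and 1 as lower in DNase II-deficient minus wild-type, with 17 past the filter and a median of 0.35. Cd93, a surface lectin-like receptor of endothelium and myeloid cells, read 4.41, 20.7 and 5.76. Mcam, an adhesion molecule of endothelium and pericytes, read 2.12, 7.22 and 2.59. Icam2, a ligand for leukocyte integrins, read 1.26, 3.54 and 1.57, and Sparcl1, a matrix-associated protein, 0.354, 1.75 and 0.377. Like Pecam1 and Emcn, these 4 genes were highest without DNase II, and the double-deficient array read them 2.26-fold to 4.65-fold lower. The single gene counted as lower was Aqp1, a water channel of endothelium and red cells, which read 7.41, 2.90 and 5.07; it is named because it stood alone. In double-deficient minus DNase II-deficient 5 probes were counted as lower and 0 as higher (median -0.40), and 0 were counted against wild-type (median 0.09).

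Further sinusoidal genes, the class of Stab1 and Stab2, had 3 of 18 probes counted as higher and 0 as lower, with 13 past the filter and a median of 0.40. Fcgr2b, the Fc receptor with which sinusoidal cells take up immune complexes, read 0.746, 1.88 and 1.39. Rspo3, a Wnt enhancer, read 1.70, 3.60 and 1.14. Bmp2 had 2 probes, which read 3.07, 6.07 and 2.88, and 1.02, 2.15 and 1.02. Against wild-type the dimmer probe was counted as higher at 2.10-fold, and the brighter one, at 1.98-fold, was not counted. No probe of this list was counted as lower, as Stab2 was. Mrc1, the mannose receptor that macrophages also carry, read 3.98, 2.78 and 7.24, a log2 difference of -0.52 from wild-type, and was 2.60-fold higher in the double-deficient than in the DNase II-deficient array. In that comparison 3 probes were counted as lower and 1 as higher (median -0.27), and 0 against wild-type (median 0.11).

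Endothelial transcription factors had 3 of 34 probes counted as higher and 1 as lower in DNase II-deficient minus wild-type, 17 having passed the filter, with a median of 0.06. Sox7, a factor of early and growing vessels, read 0.811, 2.46 and 1.14, Klf4, a flow-induced factor that myeloid cells also use, 0.584, 1.53 and 1.18, and Ets1, an ETS factor, 0.492, 1.16 and 0.705. Foxc1, a forkhead factor of vessels and mesenchyme, was lower at 5.65, 1.75 and 4.86. Klf4 was the 1 probe of the list counted as higher in double-deficient minus wild-type, at 2.02-fold. In double-deficient minus DNase II-deficient, 1 probe was higher (Foxc1) and 1 lower (Sox7). The median of 0.04 was again the value of probes at the floor in both arrays. Of the Notch pathway, which selects sprouting cells, 0 of 8 probes were counted in any comparison, with only 2 past the filter against wild-type.

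The TGF-beta and BMP pathway, to which Eng belongs, had 4 of 23 probes counted as higher and 0 as lower in DNase II-deficient minus wild-type, with 12 past the filter and a median of 0.47. Bmp10, a ligand for Acvrl1 and Eng, read 0.133, 1.05 and 0.157. It was at the floor in the wild-type and double-deficient arrays, hence at least 6.46-fold higher than wild-type. Tgfb3, another ligand, read 2.02, 6.0 and 1.90, and Bmp6, a ligand that liver endothelium makes to signal iron load, 0.925, 2.42 and 0.797. Id1, a target of BMP signalling, read 1.98, 4.21 and 2.65. In double-deficient minus DNase II-deficient 3 probes were counted as lower and 0 as higher (median -0.21), and 0 against wild-type (median 0.12).

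**Figure D4:**
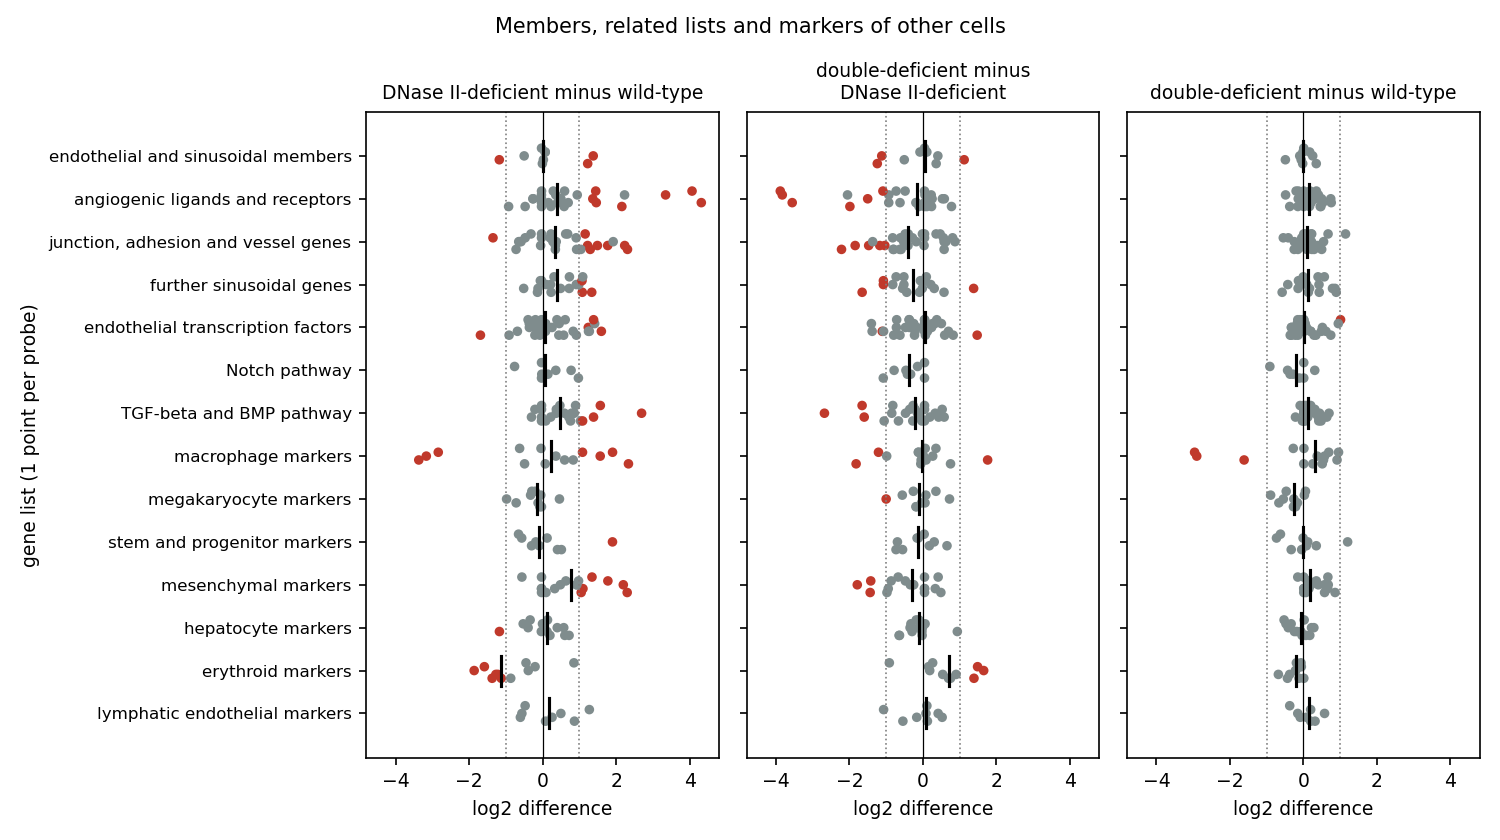
Log2 difference of every measured probe of the members, of 6 related lists and of 7 marker lists in the 3 comparisons; coloured points passed the level filter and 2-fold, dark bars are medians and dotted lines mark 2-fold. In the first panel points past 2-fold lie mostly to the right for the vessel lists (medians 0.06 to 0.47) and to the left for erythroid markers (median -1.13), and in the third panel few points pass 2-fold.

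Markers of other cells moved in the same arrays, and their part in the values above was not tested. Erythroid markers, the most abundant blood lineage of fetal liver, had 6 of 11 probes counted as lower and 0 as higher in DNase II-deficient minus wild-type (median -1.13). Their summed levels were 1989, 1526 and 1830. Sums are of linear levels, so here and in the other marker lists the brightest probes weigh most. In the erythroid list these were the globins Hbb-bt (1032, 895 and 993) and Hba-a1 (632, 482 and 547), named for their brightness and not past 2-fold. Mesenchymal markers had 6 of 18 probes counted as higher and 0 as lower, with 13 past the filter and a median of 0.78. Their summed levels were 201.8, 326.6 and 247.2, and 4 probes were under the floor in all arrays. Tagln, Lrat and Pdgfrb, a contractile, a stellate and a pericyte gene, led that list at 4.93-fold, 4.58-fold and 3.42-fold. Another Lrat probe, 6890, was under the floor in all arrays, so the Lrat fold rests on probe 15139 alone.

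Macrophage markers, which matter for Stab1 because some macrophages carry it, had 4 of 14 probes higher and 3 lower, with 12 past the filter. The median over all 14 was 0.22, and the summed levels were 175.8, 204.9 and 189.7. The 4 higher probes were those of Fcgr1 (5.05-fold), Siglec1 (3.74-fold), Aif1 (2.96-fold) and Lyz2 (2.12-fold), named because they were so few, and in the double-deficient array Fcgr1 and Siglec1 were 3.53-fold and 2.32-fold lower than without DNase II. The 3 lower probes were Marco, Cd5l and Clec4f of resident macrophages, at 10.3-fold, 8.97-fold and 7.16-fold, and the double-deficient array read them 3.06-fold, 7.47-fold and at least 7.78-fold lower than wild-type. Against the DNase II-deficient array, the double-deficient array read Marco 3.38-fold and Cd5l 1.20-fold higher, and Clec4f did not pass the level filter. Hepatocyte markers had 0 of 13 probes higher and 1 lower, Serpina1a, with summed levels of 3359, 3439 and 3038. No probe of these marker lists read at or below 0.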

How the data were processed

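Total RNA from whole fetal liver was reduced to poly(A) RNA, copied to cDNA, transcribed with a biotin label and hybridised to CodeLink mouse arrays, per the labels' protocols. Per the labels' protocols, the images were read with CodeLink System Software, and the authors deposited 1 normalised intensity per probe and array. Its background method, filters and normalisation formula were not given in the sources used. Array medians were nearly equal, so total RNA differences are hidden, and 267, 224 and 253 values lay at or below 0, so a background was subtracted and dim probes are uncertain. Arrays have no read depth.

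Of 20289 probes, 125 lacked a value in 1 or more arrays and were left out. The platform annotation, which can be old, gave 15035 probes with 1 gene symbol, 38 with several and 5091 with none. Members came from probes with 1 symbol. Values were floored at the 25th percentile, log2 transformed and subtracted between arrays. No test was run. A fold is called at least that value where the lower value was the floor. Medians of lists include probes at the floor. Genes of the related lists were named as the up to 4 largest differences past 2-fold per list and comparison (up to 3 for marker lists), with exceptions said in the text. Flt4, Prox1, Foxc2 and Reln stand in 2 lists.

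The members, lists, motifs and thresholds were chosen with earlier results of these data known. Alternatives were another floor, level filter, scaling (quantile and cyclic loess in limma 3.58.1, R 4.3.3) and 1 probe per gene. Other steps used Python 3.11.15, numpy and pandas, and were tested on simulated data.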

Additional observations from a re-analysis of the deposited data

How the results depend on the processing

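Relative to the values as deposited, 5 of the member counts changed by more than 1.5 times. In DNase II-deficient minus wild-type, the number of member probes counted as higher fell from 2 to 0 with a filter at the 75th percentile, which leaves out Pecam1 and Emcn, and the number counted as lower fell from 1 to 0 with quantile normalisation and to 0 with cyclic loess, as Stab2 came to -0.99 and -0.89. In double-deficient minus DNase II-deficient, the number higher fell from 1 to 0 with cyclic loess, as Stab2 came to 0.93, and the number lower from 2 to 0 with the filter at the 75th percentile. No other member count changed by more than 1.5 times. Pecam1 and Emcn probe 13691 passed 2-fold under each scaling and floor tried, with log2 differences from wild-type of 1.07 to 1.51 and 1.01 to 1.36. Stab2 was lower than wild-type in each, at -1.18 to -0.89. Medians of the member probes moved by less than the typical spread of their differences: 0.00 to 0.28, -0.08 to 0.04 and -0.02 to 0.05 in the order of the comparisons. The first was above 0 under each setting, and the sign of the other two changed between settings. With the floor at the array median, the medians (0.001, 0.007 and 0.008) were the values that probes at the floor take from the floors. Their signs at that setting carry no direction. The median over probes above the floor was an alternative chosen after seeing the data. No paired analysis was possible because each genotype has 1 array, and leaving out an array was not possible for the same reason. Pecam1, Emcn and Cdh5 are limited by low signal.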

Other observations

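Lymphatic endothelial markers, which include Prox1, a factor that hepatoblasts also express, had 0 of 8 probes counted as different in any comparison. Only 4, 4 and 3 of the 8 passed the level filter in the order of the comparisons, so the rest could not be counted. Reln, which is made by lymphatic and liver stromal cells, read 32.1 in wild-type, 21.7 without DNase II and 28.9 in the double mutant, and Pdpn 0.561, 1.02 and 0.699; both were named after their values were seen.

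Megakaryocyte markers, a lineage that also carries Pecam1, had 0 of 10 probes counted as different in DNase II-deficient minus wild-type (7 past the filter, median -0.16). Their summed levels were 281.9, 213.9 and 209.0. The brightest probe, Ppbp, weighed most in these sums at 158, 96.1 and 99.9, and Pf4, the next, read 54.6, 53.4 and 47.2. Both were named for their brightness. In double-deficient minus DNase II-deficient 1 probe, Itga2b, was counted as lower. In DNase II-deficient minus wild-type, stem and progenitor markers, some of cells that carry Tek, had 7 of 9 probes past the filter (median -0.09). They had 1 probe counted as higher, Gfi1 at 3.73-fold. Their summed levels were 27.3, 27.7 and 23.2. The sign of both medians changed with cyclic loess, to 0.03 and 0.10.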
